A study of Homo sapiens with 3 samples.

Results

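The genes described here are 17 glycolytic enzymes and 16 other genes of the hypoxia response, 33 of the 18692 gene symbols listed in any of 3 single-cell count tables. They were taken as given from a list of 34 entries, 1 of which names no gene. Every one of the 33 genes was listed in all 3 tables. The data are UMI counts (unique molecular identifiers, which count captured transcripts) from H460, a human cell line established from large-cell carcinoma of the lung, and from its derivatives mdR-H460 and ldR-H460, which the labels call mid-term and long-term dR-H460. Per the labels' protocols, the study's reprogrammed cancer cells were set on a feeder layer of gamma-irradiated human fibroblasts in a stem cell medium. The oxygen level of the cultures and the time each derivative was kept are not given in the sources used here.

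Each culture was profiled as 1 library, so differences between cultures could not be tested, none was checked in a replicate, and each ratio compares a pair of libraries. The ldR-H460, mdR-H460 and H460 libraries held 4956, 5151 and 4531 cells and 60468481, 66624830 and 66192074 UMIs. Mitochondrially encoded transcripts took 4.80% to 6.80% of the UMIs, and pairs of libraries shared 24 to 36 cell barcodes. The keratin genes KRT8 and KRT18, markers of epithelial cells, were at 459 CPM or more in every library, while the epithelial adhesion gene EPCAM was under 0.348 CPM and CDH1 was not listed. KRT19, another keratin gene, was at 40.3 CPM in ldR-H460, 194 CPM in mdR-H460 and 1696 CPM in H460. The 10 fibroblast markers summed to 4.68 CPM in ldR-H460, 3.06 CPM in mdR-H460 and 11.1 CPM in H460, with PDGFRA, THY1, FAP and POSTN at 0 in all 3. The 5 leukocyte markers summed to between 1.61 and 4.23 CPM, with PTPRC and CD3E at 0.

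Glycolysis breaks glucose down to pyruvate and yields ATP without oxygen. Lactate dehydrogenase then turns pyruvate into lactate, and pyruvate dehydrogenase instead sends it into the mitochondrion unless its kinases (PDKs) block that step. When oxygen is low, the prolyl hydroxylases that mark HIF alpha subunits for destruction slow down, and HIF raises transcription of many glycolytic enzymes together with genes for angiogenesis, pH control, collagen modification and mitophagy. Many carcinoma lines run glycolysis at a high rate even with oxygen present.

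CPM, the unit of every level below, is the count of UMIs of a gene scaled to a common library total. In brackets after each fold stand the 95% limits from counting error, which do not cover variation between cultures. A gene is called higher or lower at 1.5-fold or more, among 11639 genes with a mean of at least 1 CPM over the 3 libraries. All 17 enzymes and 15 of the 16 other genes passed that filter, and PFKFB4 did not.

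In ldR-H460 against H460 the aldolases ALDOA and ALDOC, the enolase ENO2 and the lactate dehydrogenase gene LDHA were lower, together with the hypoxia response genes CA9, NDRG1, PDK1, P4HA1, P4HA2 and ANKRD37. The hexokinase HK1 and the kinases PDK3 and PDK4 were higher. Of the 17 enzymes, 1 was higher and 4 were lower (23.5%), where 10.8% of all genes tested were higher and 20.6% were lower. Of the 15 other genes, 2 were higher and 6 were lower (40.0%). The share of enzymes called lower was thus near that of all genes, and that of the other hypoxia response genes was higher, a difference that was not tested. In mdR-H460 against H460, no enzyme was higher and 1 was lower, while none of the other genes was higher and 4 were lower (26.7%), with 5.95% of all genes higher and 20.9% lower. In ldR-H460 against mdR-H460, no enzyme was higher and 6 were lower (35.3%), and 2 of the other genes were higher and 3 lower, with 13.8% of all genes higher and 10.3% lower. The comparisons share libraries and are therefore not independent of each other.

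The median log2 ratio of the enzymes was −0.05 in ldR-H460 over H460, 0.14 in mdR-H460 over H460 and −0.20 in ldR-H460 over mdR-H460. For the other hypoxia response genes these medians were −0.24, −0.39 and 0.08, and for all genes tested −0.12, −0.16 and 0.07, in the same order of pairs. The enzyme median in ldR-H460 over H460 turned positive with TMM factors (0.06) and DESeq2 factors (0.05) and without mitochondrial and ribosomal protein genes in the totals (0.01). The median of the other genes in ldR-H460 over mdR-H460 turned negative with cells weighted equally (−0.12), with thinned cells (−0.04), without cells of 4000 or more genes (−0.09) and over the 6 genes at a mean of 10 CPM (−0.46). The enzymes as a whole took 1.21% of UMIs in ldR-H460, 1.54% in mdR-H460 and 1.44% in H460. Their sum was 1.19-fold lower in ldR-H460 than in H460, and 1.07-fold higher in mdR-H460. GAPDH alone made up 45.8%, 38.7% and 44.4% of it in ldR-H460, mdR-H460 and H460. The 16 other genes summed to 488, 652 and 592 CPM in that order of libraries, of which BNIP3 held 67.0%, 74.0% and 63.0%. Without BNIP3 their sums were 161 CPM in ldR-H460, 169.6 CPM in mdR-H460 and 219 CPM in H460.

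**Figure D1:**
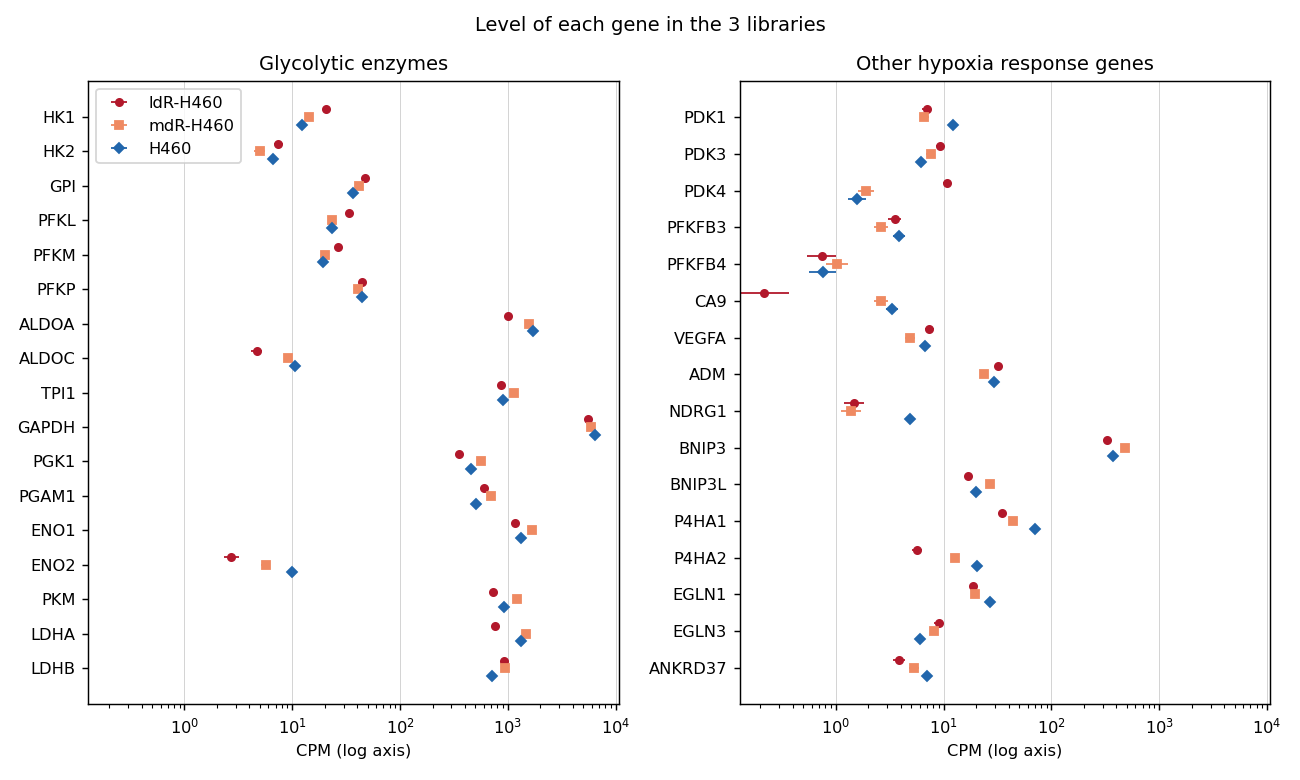
Level of each of the 33 genes in CPM (log axis) in ldR-H460, mdR-H460 and H460, with 1 library per culture. Points are library values and bars are 95% counting intervals. GAPDH lies at 5548 CPM or more in each library and CA9 in ldR-H460 is the lowest value shown, at 0.215 CPM.

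The first steps of glycolysis, from glucose to fructose bisphosphate, were at or above the H460 level in ldR-H460 over whole libraries. Under alternatives of scaling or of cells, the log2 ratio to H460 fell as low as −0.23 for HK2 and −0.30 for PFKP. HK1, GPI, PFKL and PFKM stayed above H460 under all of them. HK1, a hexokinase that traps glucose in the cell, was at 20.4 CPM in ldR-H460, 14.2 CPM in mdR-H460 and 12.2 CPM in H460. It was 1.67-fold higher in ldR-H460 than in H460 (1.53 to 1.83), the only one of the 17 enzymes called higher in any pair. HK2, the hexokinase that HIF is known to induce, was at 7.44, 4.97 and 6.66 CPM in ldR-H460, mdR-H460 and H460. HK2 thus gave 26.7%, 25.9% and 35.3% of the summed UMIs of HK1 and HK2. The isozyme gene HKDC1, not among the 33 genes and not in these shares, was called higher in ldR-H460 than in H460. GPI, which isomerises glucose 6-phosphate, was at 46.9 CPM in ldR-H460, 41.3 CPM in mdR-H460 and 36.5 CPM in H460.

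The 3 phosphofructokinase genes, whose product commits sugar to glycolysis, shifted against each other. PFKL, named for liver, was at 33.3, 23.6 and 23.4 CPM in ldR-H460, mdR-H460 and H460, and PFKM, named for muscle, at 26.5, 20.3 and 19.2 CPM. PFKP, named for platelets, was nearly level at 44.6, 40.6 and 44.5 CPM in the same order. Its share of the phosphofructokinase UMIs was 42.8% (95% Clopper-Pearson interval 41.5 to 44.0) in ldR-H460, 48.0% in mdR-H460 and 51.1% (49.8 to 52.4) in H460. None of the 3 was called in any pair.

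Aldolase, which splits the 6-carbon sugar, was the first step lower in ldR-H460. ALDOA was at 1011 CPM in ldR-H460, 1563 CPM in mdR-H460 and 1697 CPM in H460, and was 1.68-fold lower in ldR-H460 than in H460 (1.66 to 1.69). The brain form ALDOC, at 4.68 CPM in ldR-H460, 9.16 CPM in mdR-H460 and 10.6 CPM in H460, was 2.26-fold lower in ldR-H460 than in H460 (1.97 to 2.60). Against H460, mdR-H460 was within 1.5-fold for both genes, 1.09-fold lower for ALDOA and 1.16-fold lower for ALDOC, and for ALDOA this small difference changed its direction with the TMM and DESeq2 scaling factors.

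From the 3-carbon sugars on, most of the main enzymes were highest in mdR-H460, with GAPDH and ENO2 highest in H460. TPI1, which interconverts the 3-carbon products, was at 859.6 CPM in ldR-H460, 1130.4 CPM in mdR-H460 and 893 CPM in H460. PGK1, which makes the first ATP, was at 349, 569 and 451 CPM in the same order, and PKM, the pyruvate kinase that makes the last, at 726, 1225 and 930.3 CPM. PGK1 was 1.63-fold lower in ldR-H460 than in mdR-H460 (1.60 to 1.66) and PKM 1.69-fold lower (1.67 to 1.71), and neither was called against H460 in either derivative. ENO1, the main enolase, was at 1156 CPM in ldR-H460, 1689 CPM in mdR-H460 and 1331 CPM in H460, a 1.46-fold lower value in ldR-H460 than in mdR-H460 that is just under the call. PGAM1, which moves the phosphate group, was at 603, 691 and 508 CPM in the same order of libraries, and GAPDH, which oxidises the 3-carbon sugar, at 5548, 5934 and 6393 CPM. Over the 17 enzymes, 7 were highest in mdR-H460 with the interval of the ratio to the next library above 1 (TPI1, PGK1, PGAM1, ENO1, PKM, LDHA and LDHB), 4 in ldR-H460 and 4 in H460. How all genes spread over the libraries by this rule was not computed. The neuronal enolase ENO2 stood apart from ENO1, at 2.73 CPM in ldR-H460, 5.67 CPM in mdR-H460 and 9.91 CPM in H460. ENO2 was 3.63-fold lower in ldR-H460 than in H460 (3.06 to 4.33) and, in mdR-H460, 1.75-fold lower (1.54 to 1.99). The second of these calls was lost in cells called G1 (log2 ratio −0.44), with thinned cells (−0.55) and with cells weighted equally, where little of it was left (−0.05).

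**Figure D2:**
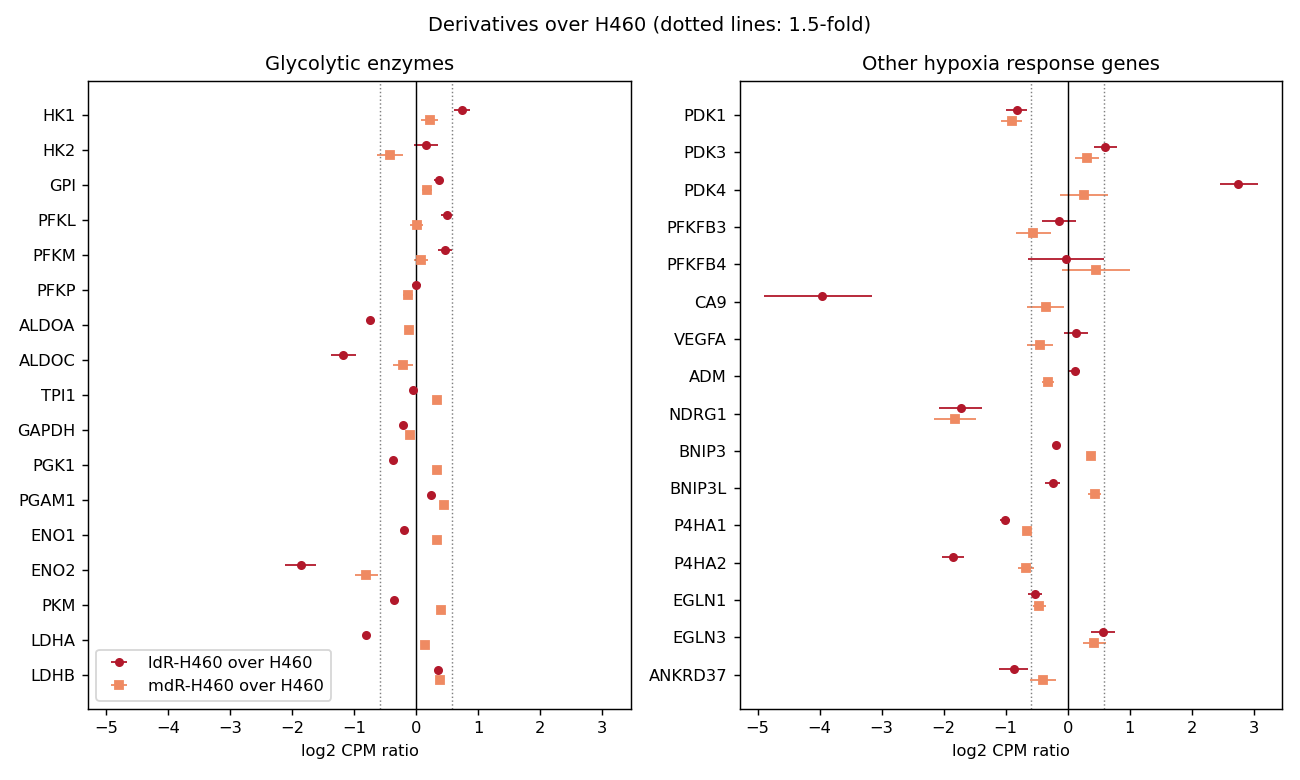
log2 CPM ratios of ldR-H460 over H460 and of mdR-H460 over H460 for each gene, with 95% counting intervals as bars and dotted lines at 1.5-fold. The glycolytic enzymes lie between −1.86 and 0.74 for ldR-H460 over H460, and the other genes between −3.96 (CA9) and 2.76 (PDK4).

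The lactate dehydrogenase genes changed their order of abundance in ldR-H460. LDHA, whose enzyme form favours making lactate, was at 759 CPM in ldR-H460, 1459 CPM in mdR-H460 and 1326 CPM in H460. LDHB, whose enzyme form favours turning lactate back into pyruvate, was at 911, 934 and 717 CPM in the same order. LDHA was 1.75-fold lower in ldR-H460 than in H460 (1.73 to 1.77), while LDHB was 1.27-fold higher there (1.25 to 1.29). LDHB therefore gave 54.6% of the UMIs of the pair in ldR-H460 (54.3 to 54.9), 39.0% in mdR-H460 (38.8 to 39.3) and 35.1% in H460 (34.9 to 35.4), and it was the more abundant of the pair in ldR-H460 alone among the 3 libraries. LDHA lies at chr11:18394388-18408425 on the plus strand and LDHB at chr12:21635342-21757857 on the minus strand (GRCh38, GENCODE 29).

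The promoters of this pair are shown because LDHA and LDHB moved in opposite directions between ldR-H460 and H460. Each window runs from 250 bases before to 50 bases after a start site in RefSeq (GRCh38.p14), at chr11:18394313-18394612 on the plus strand for LDHA and chr12:21657793-21658092 on the minus strand for LDHB. Capitals mark matches on either strand to ACGTG or GCGTG, the core letters of the HIF recognition sequence, so that a match on the opposite strand reads CACGT or CACGC. The palindrome CACGTG counts as a match on each strand.
LDHA: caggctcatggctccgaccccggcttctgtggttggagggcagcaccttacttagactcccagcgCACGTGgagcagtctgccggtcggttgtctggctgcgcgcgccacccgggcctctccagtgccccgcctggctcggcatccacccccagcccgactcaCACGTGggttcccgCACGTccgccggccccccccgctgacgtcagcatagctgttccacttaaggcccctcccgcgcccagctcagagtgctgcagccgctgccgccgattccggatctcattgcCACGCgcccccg
LDHB: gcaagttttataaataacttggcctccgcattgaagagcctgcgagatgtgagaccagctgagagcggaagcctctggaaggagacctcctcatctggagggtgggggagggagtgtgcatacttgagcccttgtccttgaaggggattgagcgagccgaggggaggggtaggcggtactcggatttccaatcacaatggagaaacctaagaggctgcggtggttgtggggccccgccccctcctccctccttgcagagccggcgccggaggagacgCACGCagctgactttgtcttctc
The LDHA window held 6 matches, 5 of them to ACGTG, and the LDHB window held 1, to GCGTG. Of the 33 genes, 30 matched the RefSeq promoter table, and where a gene had several windows the first listed was used. At least 1 match to either motif was found in 12 of 17 enzymes and in 9 of 13 other genes, together 70.0%, against 48.4% of 27305 windows with 1 window per gene. For ACGTG alone the shares were 46.7% of the 30 genes and 21.6% of all windows, and for GCGTG alone 43.3% and 36.3%. A match describes letters in the window and does not show that a factor binds there.

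**Figure D3:**
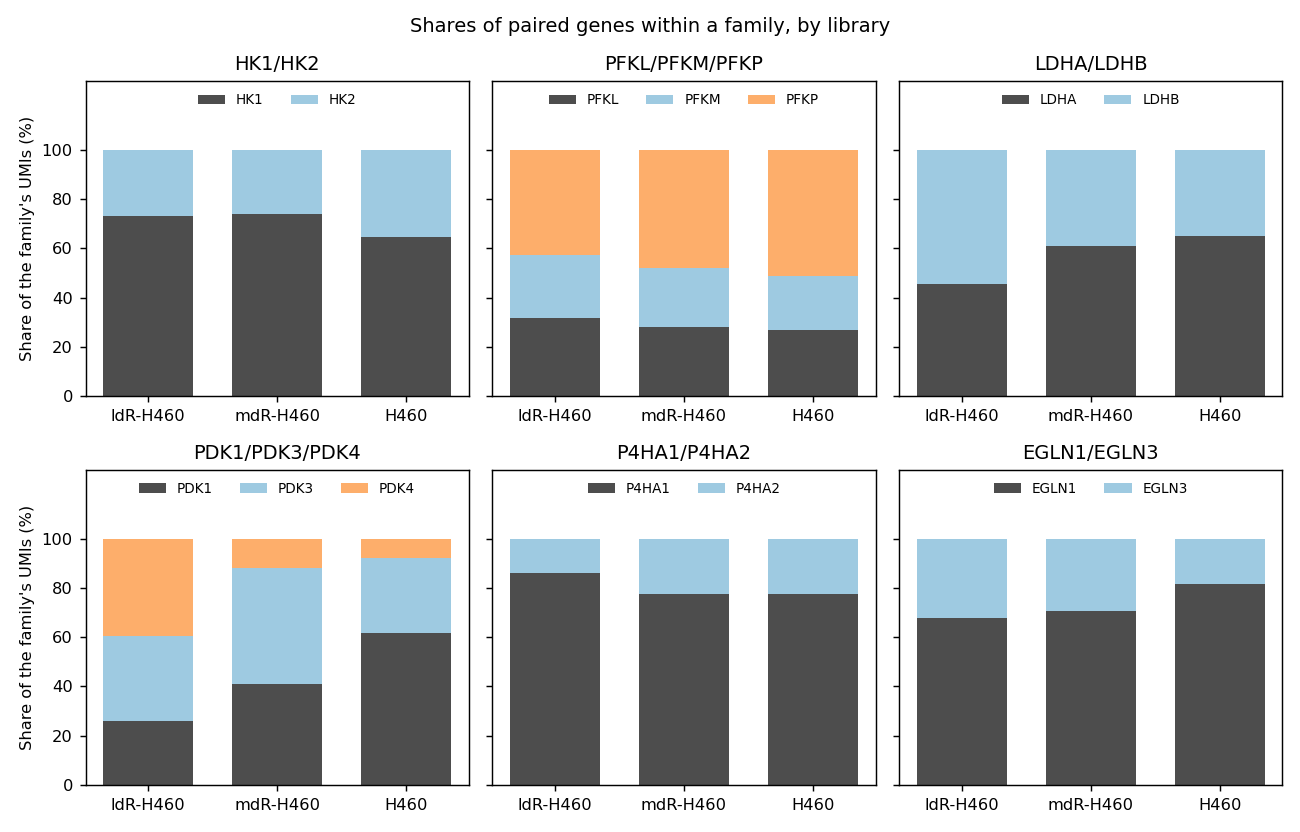
Share of each gene in the summed UMIs of the family members shown, in percent, in ldR-H460, mdR-H460 and H460. Bars of a library add up to 100% of the UMIs of these members. LDHB takes 54.6%, 39.0% and 35.1% of the lactate dehydrogenase pair, and PDK4 takes 39.6%, 11.8% and 7.92% of PDK1, PDK3 and PDK4 together.

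Among the kinases that switch off pyruvate dehydrogenase, PDK1 was highest in H460 and PDK3 and PDK4 were highest in ldR-H460. PDK1, a direct HIF target, was at 7.00 CPM in ldR-H460, 6.60 CPM in mdR-H460 and 12.3 CPM in H460, and both derivatives were lower than H460, by 1.76-fold (1.57 to 1.99) in ldR-H460 and 1.87-fold (1.66 to 2.10) in mdR-H460. PDK4, better known for its induction by fasting and by fatty acids, was at 10.7 CPM in ldR-H460, 1.91 CPM in mdR-H460 and 1.59 CPM in H460. It was 6.76-fold higher in ldR-H460 than in H460 (5.49 to 8.38) and had a ratio of 1.20 in mdR-H460 over H460 (0.921 to 1.57). PDK3, also known as a HIF target, was at 9.33, 7.58 and 6.12 CPM in ldR-H460, mdR-H460 and H460, 1.52-fold higher in ldR-H460 than in H460 (1.34 to 1.74). PDK1 made up 25.9% of the summed UMIs of PDK1, PDK3 and PDK4 in ldR-H460, 41.0% in mdR-H460 and 61.5% in H460, and PDK4 made up 39.6%, 11.8% and 7.92%. PDK2, a kinase of the same family that is not among the 33 genes and not in these shares, was at 3.32 CPM in ldR-H460, 4.89 CPM in mdR-H460 and 2.33 CPM in H460, 2.10-fold higher in mdR-H460 than in H460 (1.73 to 2.56). PDK4 lies at chr7:95583499-95596491 on the minus strand and PDK1 at chr2:172555373-172608669 on the plus strand (GRCh38, GENCODE 29). No match to either motif was found in the RefSeq window of PDK4 or in the first listed of the 2 windows of PDK1, the only 1 searched.

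The bifunctional enzymes that set fructose 2,6-bisphosphate, the activator of phosphofructokinase, were low in all libraries. PFKFB3 was at 3.51 CPM in ldR-H460, 2.63 CPM in mdR-H460 and 3.85 CPM in H460. PFKFB4 was at 0.744, 1.04 and 0.755 CPM in the same order, and none of the pairs had a ratio whose interval left out 1.

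CA9, the cell surface carbonic anhydrase that is a standard marker of hypoxic tumour, was the gene with the lowest ratio of all 33. It had 13 UMIs in ldR-H460, 174 in mdR-H460 and 221 in H460, which are 0.215, 2.61 and 3.34 CPM. It was 15.5-fold lower in ldR-H460 than in H460 (8.90 to 29.6), while mdR-H460 was lower than H460 by 1.28-fold (1.04 to 1.57), short of the call. Among cells with at least 5000 UMIs, each randomly reduced to that number, CA9 was seen in 0.133% in ldR-H460, 1.11% in mdR-H460 and 1.69% in H460. Over all cells without thinning, CA9 was seen in 0.222%, 2.48% and 3.80%. The libraries hold a single cell line, so no cell type without the gene gives a background share. CA9 lies at chr9:35673856-35681159 on the plus strand (GRCh38, GENCODE 29). Its RefSeq promoter window, chr9:35673678-35673977 on the plus strand (GRCh38.p14), is shown because CA9 had the largest difference, with its 1 match to ACGTG, on the opposite strand, in capitals.
CA9: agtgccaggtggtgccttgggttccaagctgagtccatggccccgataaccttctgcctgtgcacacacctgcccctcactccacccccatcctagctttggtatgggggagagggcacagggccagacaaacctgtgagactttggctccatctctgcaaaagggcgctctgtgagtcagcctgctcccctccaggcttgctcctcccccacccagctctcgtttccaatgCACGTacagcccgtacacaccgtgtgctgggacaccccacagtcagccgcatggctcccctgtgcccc

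The secreted factors of the response did not follow CA9. VEGFA, the main angiogenic growth factor, was at 7.39 CPM in ldR-H460, 4.91 CPM in mdR-H460 and 6.71 CPM in H460, and was 1.51-fold higher in ldR-H460 than in mdR-H460 (1.30 to 1.74). ADM, the vasodilator peptide adrenomedullin, was at 31.9, 23.6 and 29.5 CPM in the same order. For both genes mdR-H460 was the lowest library, but in cells called G1 ADM was at 37.5 CPM in mdR-H460 and 36.2 CPM in H460. In ldR-H460 over H460 the ratio was 1.10 for VEGFA (0.964 to 1.26), not apart from 1 and turned round with cells weighted equally (log2 ratio −0.15), and 1.08 for ADM (1.02 to 1.15).

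NDRG1, a stress-responsive gene of the N-myc downstream regulated family, was lower in both derivatives by about the same amount. It was at 1.49 CPM in ldR-H460 (90 UMIs), 1.40 CPM in mdR-H460 (93 UMIs) and 4.89 CPM in H460 (324 UMIs). The fold against H460 was 3.29 lower in ldR-H460 (2.60 to 4.202) and 3.51 lower in mdR-H460 (2.78 to 4.47), and the derivatives did not differ beyond counting error (ratio 1.07, 0.789 to 1.44). ANKRD37, a small ankyrin repeat gene known as a HIF target, was at 3.85 CPM in ldR-H460, 5.34 CPM in mdR-H460 and 7.03 CPM in H460, 1.82-fold lower in ldR-H460 than in H460 (1.55 to 2.14).

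The collagen prolyl hydroxylases, which stabilise the collagen helix in the secretory pathway, were lowest in ldR-H460 and intermediate in mdR-H460. P4HA1 was at 34.7 CPM in ldR-H460, 44.4 CPM in mdR-H460 and 69.9 CPM in H460. P4HA2 was at 5.64, 12.8 and 20.3 CPM in that order. In ldR-H460 over H460, P4HA1 was 2.01-fold lower (1.91 to 2.12) and P4HA2 3.60-fold lower (3.19 to 4.06), and in mdR-H460 over H460 they were 1.58-fold (1.504 to 1.65) and 1.59-fold (1.46 to 1.74) lower.

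The mitophagy receptors and the oxygen sensors differed less from H460. BNIP3 was at 327 CPM in ldR-H460, 482 CPM in mdR-H460 and 373 CPM in H460, and its relative BNIP3L at 16.97, 27.2 and 20.03 CPM, so both were highest in mdR-H460. BNIP3L was 1.60-fold lower in ldR-H460 than in mdR-H460 (1.48 to 1.73). For BNIP3 the log2 ratio of this pair was −0.56, just under the call, and it passed the call under 6 of the 11 alternatives. EGLN1, the main prolyl hydroxylase that senses oxygen, was at 18.7 CPM in ldR-H460, 19.6 CPM in mdR-H460 and 26.8 CPM in H460. EGLN3, the family member that HIF induces most strongly, had the opposite order, at 8.96, 8.17 and 6.04 CPM. EGLN3 gave 32.4% of the UMIs of this pair in ldR-H460, 29.4% in mdR-H460 and 18.4% in H460.

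Within the cultures, the levels moved with the called cell cycle phase, and the mix of phases differed between libraries. Cells called G1 made up 19.1% of the thinned cells in ldR-H460, 35.1% in mdR-H460 and 37.9% in H460, and cells called G2/M 47.3%, 38.6% and 25.2%. Among members with a mean of at least 10 CPM, all 6 other hypoxia response genes (ADM, BNIP3, BNIP3L, P4HA1, P4HA2 and EGLN1) were highest in cells called G1 in each library. Of the 14 enzymes at that level, 7 were highest in G1 in ldR-H460, 10 in mdR-H460 and 9 in H460. The share of all genes highest in G1 was not computed. For EGLN1 in H460 the interval of G1 over G2/M was 0.904 to 1.42. Among the less abundant hypoxia response genes in ldR-H460, EGLN3, VEGFA, PFKFB3 and ANKRD37 were lower in G1 than in G2/M, each with an interval that included 1. There PDK1, PDK3, PDK4, PFKFB4, CA9 and NDRG1 were higher in G1, with intervals above 1 for PDK4, PFKFB4 and NDRG1 only. BNIP3L had a steep difference in each library, at 35.6 CPM in G1 and 16.9 CPM in G2/M in ldR-H460, 58.5 and 17.6 CPM in mdR-H460, and 38.8 and 10.9 CPM in H460. LDHA was at 815 CPM in G1 and 735 CPM in G2/M in ldR-H460, 1814 and 1267 CPM in mdR-H460, and 1615 and 1051 CPM in H460. LDHB did not share this, with 903 CPM in G1 and 892 CPM in G2/M in ldR-H460, 705 and 966 CPM in mdR-H460, and 683 and 681 CPM in H460. HK2, below that level, was at 3.01 CPM in G1 and 7.57 CPM in G2/M in ldR-H460, 3.38 and 5.61 CPM in mdR-H460, and 5.35 and 6.17 CPM in H460, and the interval of the ratio left out 1 in ldR-H460 alone. LDHA was lower in ldR-H460 than in H460 within each called phase, at 815 against 1615 CPM in G1, 728 against 1327 CPM in S and 735 against 1051 CPM in G2/M, and the difference in G2/M was under 1.5-fold.

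**Figure D4:**
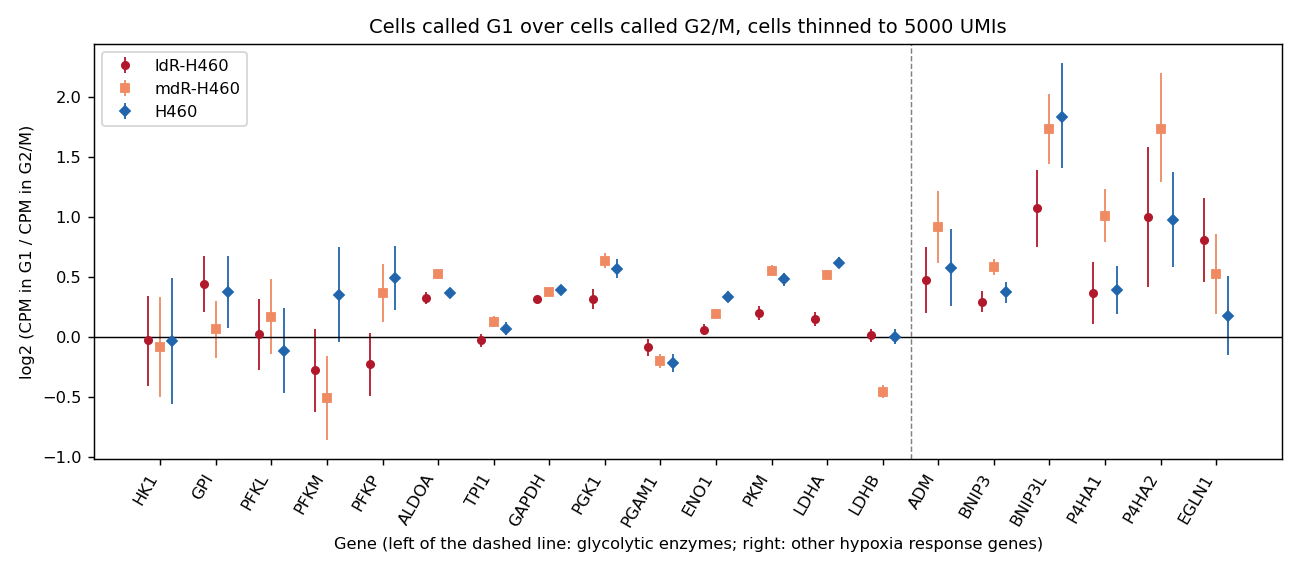
log2 ratio of the level in cells called G1 over that in cells called G2/M for the 20 genes with a mean of at least 10 CPM, in ldR-H460, mdR-H460 and H460, after thinning to 5000 UMIs. Bars are 95% counting intervals. All 6 hypoxia response genes on the right lie above 0 in each library, and LDHB in mdR-H460 lies below 0.

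Cells were then clustered within each library. Since the clusters were made from all variable genes, members included, their levels are a description. The share of all genes highest in each cluster was not computed, so the counts of members below stand without a background. In ldR-H460 a cluster of 698 cells, led by PLCG2, NDUFA4L2 and FN1, had the highest level of 12 of the 16 other hypoxia response genes and of 8 of the 17 enzymes among clusters with a median over 1000 UMIs. That cluster held 12.2% of the UMIs of ldR-H460 but 12 of its 13 CA9 UMIs, 52.2% of its NDRG1 UMIs, 37.1% of its BNIP3L UMIs and 31.5% of its PDK4 UMIs. Among clusters with a median over 1000 UMIs, PDK4 was nevertheless at 7.80 CPM or more in each of the others of ldR-H460. The highest such cluster in H460 was at 5.25 CPM, a value from only 50 cells, and the counting error of this difference was not computed. LDHA was at 912 CPM in the ldR-H460 cluster of 698 cells, below the 1013 CPM of the lowest such cluster in H460 (110 cells).

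A cluster led by HSPA6 and DDIT3, genes of the heat shock and unfolded protein responses, was found in mdR-H460 (315 cells) and in H460 (110 cells) and not in ldR-H460. It held 6.14% of the UMIs of mdR-H460 and 2.07% of those of H460. In mdR-H460 it held 24.4% of the ANKRD37 UMIs, 17.5% of the ADM UMIs and 16.1% of the NDRG1 UMIs, and in H460 12.7%, 7.73% and 6.48% of them. It had the highest level of 8 of the 16 other hypoxia response genes and 5 of the 17 enzymes in mdR-H460. In H460 it had the highest level of 10 and 6 of them, and no share of all genes was computed beside these counts. The sum of the 16 genes, most of which is BNIP3, had 6.06% of its UMIs there in mdR-H460 and 2.54% in H460.

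Over single cells, the most abundant members, enzymes and BNIP3, varied together more in mdR-H460 than in the other libraries. In 45 pairs among the 10 most abundant members, the median of Spearman's rho was 0.15 over 4521 cells of ldR-H460, 0.29 over 3880 cells of mdR-H460 and 0.20 over 3850 cells of H460. The cells of a library share its preparation, and all were thinned to the same depth. The UMIs of enzymes per thinned cell still differed between libraries, and their bearing on rho was not tested. The summed enzymes and the summed other genes had a rho of 0.19 in ldR-H460, 0.39 in mdR-H460 and 0.29 in H460. ALDOA and GAPDH had a rho of 0.34, 0.44 and 0.42 in that order of libraries. LDHB had the lowest median rho to the other 9 members in mdR-H460 (0.11) and in H460 (0.13). In ldR-H460 its median of 0.10 was like that of BNIP3 (0.10) and PGAM1 (0.12), and its rho with GAPDH was 0.22. Between LDHB and BNIP3 rho was between −0.0015 and 0.03 in the 3 libraries. The median thinned cell had 57 UMIs of glycolytic enzymes in ldR-H460 (5th to 95th percentile 37 to 92), 72 in mdR-H460 (42 to 129) and 68 in H460 (38 to 119), so the spread over cells was narrowest in ldR-H460.

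**Figure D5:**
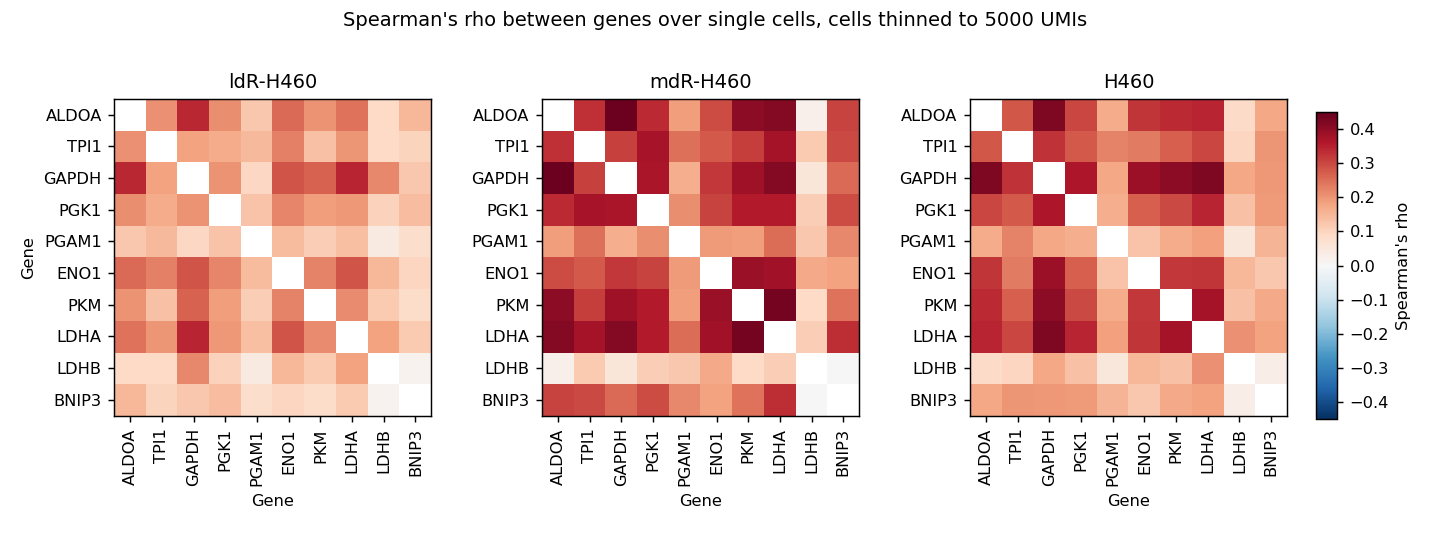
Spearman's rho between the 10 most abundant members over single cells thinned to 5000 UMIs, in ldR-H460, mdR-H460 and H460. Colour gives rho from blue (negative) to red (positive). The LDHB rows are the palest in mdR-H460, where the other pairs are darkest and reach 0.44.

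The genes around the pathway were described from 8 further lists, counted in ldR-H460 over H460, where 10.8% of all genes tested were higher and 20.6% lower. No list was tested against all genes. Glucose and lactate carriers were lower for 4 of 8 measured genes (50.0%, against 20.6% of all genes) and higher for none. SLC2A1, the basal glucose transporter and a HIF target, was at 23.6 CPM in ldR-H460, 35.4 CPM in mdR-H460 and 65.4 CPM in H460. The lactate exporter SLC16A3 was at 142, 239 and 278 CPM in that order, its chaperone BSG at 219, 368 and 377 CPM, and SLC16A7, a carrier with high affinity for pyruvate, at 21.9, 13.8 and 15.6 CPM. Of 7 measured genes for HIF subunits and their regulators, 1 was higher (VHL, 14.3%) and 2 were lower (28.6%) in ldR-H460, near the 10.8% and 20.6% of all genes. HIF1A, the oxygen-regulated subunit, was at 25.9 CPM in ldR-H460, 37.7 CPM in mdR-H460 and 49.5 CPM in H460, and CITED2, an inhibitor of HIF that HIF induces, at 31.1, 39.0 and 67.9 CPM. The oxygen sensor EGLN2 (15.9, 18.8 and 18.2 CPM) and the asparagine hydroxylase HIF1AN (10.4, 10.9 and 11.4 CPM) differed by at most 1.19-fold between any pair of libraries.

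Among 26 measured further HIF targets, 5 were higher (19.2%, against 10.8% of all genes) and 8 were lower (30.8%, against 20.6%) in ldR-H460 than in H460. The glycogen regulator PPP1R3C was at 3.24 CPM in ldR-H460, 6.98 CPM in mdR-H460 and 24.5 CPM in H460, which is 7.56-fold lower in ldR-H460 than in H460 (6.51 to 8.81). The hormone gene STC2 was at 18.0, 48.9 and 78.4 CPM, the carbonic anhydrase CA12 at 9.91, 23.4 and 33.0 CPM, and WSB1, part of a ubiquitin ligase, at 16.7, 20.04 and 39.8 CPM in the same order. All 4 had ldR-H460 lowest and H460 highest, but the list did not move one way. The 5 higher genes, named after their values were seen, were LOXL2, HILPDA, MXI1, BHLHE41 and ZNF395. The collagen crosslinking enzyme LOXL2 was at 11.1, 4.53 and 2.57 CPM and the lipid droplet gene HILPDA at 36.3, 23.1 and 21.9 CPM in ldR-H460, mdR-H460 and H460. In mdR-H460 over H460, 5 of the 26 were higher (19.2%, against 5.95% of all genes) and 4 lower (15.4%, against 20.9%). The whole list summed to 756, 953 and 806 CPM in ldR-H460, mdR-H460 and H460.

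In the pentose phosphate pathway, which branches off after hexokinase, 3 of 8 measured genes were higher (37.5%, against 10.8% of all genes) and none was lower in ldR-H460 than in H460. RPIA, which isomerises ribose 5-phosphate, was at 46.9 CPM in ldR-H460, 38.3 CPM in mdR-H460 and 21.0 CPM in H460, PGD, which makes NADPH, at 222, 151 and 131 CPM, and TKT, which returns carbon to glycolysis, at 519, 454 and 406 CPM. In the TCA cycle 3 of 16 were higher (18.8%, against 10.8% of all genes) and 2 lower (12.5%, against 20.6%). Citrate synthase CS was at 84.6 CPM in ldR-H460, 43.5 CPM in mdR-H460 and 46.6 CPM in H460, and the complex II subunit gene SDHD at 60.6, 57.1 and 36.6 CPM. SUCLG2 (9.31, 6.42 and 15.9 CPM) and OGDH (10.9, 8.89 and 17.01 CPM), which act between oxoglutarate and succinate, were lower in both derivatives.

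Pyruvate import and the pyruvate dehydrogenase complex had 1 of 11 measured genes higher (9.09%, near the 10.8% of all genes) and none lower in ldR-H460 than in H460. The higher one was PDP1, a phosphatase that reverses the action of the kinases, at 3.13 CPM in ldR-H460, 1.501 CPM in mdR-H460 and 1.51 CPM in H460, named after its value was seen. The carrier genes MPC1 (35.4, 19.98 and 25.2 CPM) and MPC2 (199, 127 and 186 CPM) were lowest in mdR-H460, and PDHX (37.8, 36.2 and 27.5 CPM) and DLD (43.4, 55.0 and 43.0 CPM), both parts of the complex, showed no common order. Of 13 measured genes of other isozymes, side branches and gluconeogenesis, 4 were higher (30.8%, against 10.8% of all genes) and 1 was lower (7.69%, against 20.6%) in ldR-H460. TIGAR, a phosphatase that lowers fructose 2,6-bisphosphate, was at 9.64 CPM in ldR-H460, 22.5 CPM in mdR-H460 and 18.5 CPM in H460. The mitochondrial gluconeogenic enzyme PCK2 (14.1, 9.16 and 7.48 CPM) and the glycerol phosphate shuttle enzyme GPD2 (21.8, 9.22 and 14.1 CPM) were highest in ldR-H460, and the mitochondrial phosphatase PGAM5 was at 42.3, 44.6 and 33.6 CPM.

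The integrated stress response, which can raise PCK2 and other metabolic genes without hypoxia, split in ldR-H460, with 5 of 11 measured genes higher and 5 lower than in H460 (45.5% each way, against 10.8% and 20.6% of all genes). DDIT3, a transcription factor of endoplasmic reticulum stress, was at 10.3 CPM in ldR-H460, 76.5 CPM in mdR-H460 and 41.6 CPM in H460, and the early response factor ATF3 at 9.44, 31.0 and 31.9 CPM. The amino acid synthesis genes ASNS (34.9, 34.4 and 14.0 CPM) and PSAT1 (121, 78.5 and 50.0 CPM) were higher in both derivatives. Whether these branches bear on the glycolytic and hypoxia response genes was not tested.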

How the data were processed

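The authors deposited UMI counts per gene symbol and cell, with no normalization, for cells kept after quality filtering, per the series design text. Per the labels' protocols, cells passed a 30 µm strainer and were made into 3' libraries on a Chromium system with 5000 cells targeted. The submitters' processing notes name Cell Ranger 3.0.2, Seurat 3.0 and the build GRCh38. The annotation release is not stated there. The genes and lists were chosen with earlier results of these data known.

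UMIs were summed per library and divided by its total to give CPM. A symbol not listed counted as 0, with a floor of 3 UMIs. Intervals are exact Poisson for sums, exact binomial for ratios and Clopper-Pearson for shares, at 95%, for counting error only. No p-value was computed. All members are named, and of each other list the 4 genes with the largest ratio of either derivative over H460 among those at a mean of 10 CPM or more, of which 1 is not reported here. Shares of cells, phases and correlations used cells thinned to 5000 UMIs, which left out 435, 1271 and 681 shallower cells of ldR-H460, mdR-H460 and H460. Phases were called in scanpy 1.11.5. Clusters used 2000 variable genes, 30 components, 15 neighbours and Leiden resolution 0.5. Doublets were not called here and all deposited cells were kept. The most genes seen in a cell was 3998 in ldR-H460, 4993 in mdR-H460 and 4987 in H460. Cells with 4000 or more genes numbered 0, 504 and 681 in that order. This difference between the deposited cells goes along with every comparison of ldR-H460. The scripts were tested on simulated data. Scaling alternatives used edgeR 4.0.16 and DESeq2 1.42.0 factors.

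How reads from near-identical copies were counted is not stated, so levels are uncertain where named pseudogenes exist, as for GAPDH (62), BNIP3 (39) and PGAM1 (13), and LDHA has 6 and LDHB 3. GPI, ALDOA, ALDOC, PGK1, ENO2, LDHB, PFKFB4 and EGLN3 overlap another annotated gene on their strand.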

Additional observations from a re-analysis of the deposited data

How the results depend on the processing

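With 1 library per culture, leaving out a replicate was not possible. No paired analysis was possible because the groups share fewer than 2 replicate numbers. Of the 5 calls in mdR-H460 over H460, 2 held under 11 alternatives of scaling or of cells (PDK1 and NDRG1), of the 13 in ldR-H460 over H460, 11 held (all but HK1 and PDK3), and of the 11 in ldR-H460 over mdR-H460, 9 held (all but ALDOA and VEGFA). The calls of ENO2, P4HA1 and P4HA2 in mdR-H460 over H460 were lost under 3, 6 and 5 of them, HK1 was lost with cells weighted equally, PDK3 under 3, ALDOA under 1 and VEGFA under 6. Clusters were made within each library after pooled clustering had been seen to give no cluster led by S100A8. For counts past the threshold only the size was compared between alternatives, so a change of direction was not looked for.

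Over all genes tested, the median log2 ratio stood at −0.16 in mdR-H460 over H460 and 0.03 with TMM or 0.02 with DESeq2 factors, and −0.12, 0.00 and −0.02 in ldR-H460 over H460. The split of all calls moved with it. In mdR-H460 over H460, 5.95% of genes were higher and 20.9% lower, against 10.5% and 13.5% with TMM and 10.2% and 13.8% with DESeq2 factors. These shares were 7.39% and 21.6% with cells weighted equally, 6.78% and 21.4% with thinned cells and 8.28% and 19.5% in cells called G1. At a mean of 10 CPM they were 4.45% and 14.4%, and at 2-fold 2.65% and 8.66%. In ldR-H460 over H460 the shares of 10.8% and 20.6% became 14.2% and 16.2% with TMM, and 13.7% and 16.8% with DESeq2 factors. They were 11.3% and 22.8% with cells weighted equally and 11.4% and 22.4% with thinned cells. Without cells of 4000 or more genes they were 11.3% and 21.0%. At a mean of 10 CPM they were 7.60% and 17.2%, and at 2-fold 4.74% and 9.42%. In ldR-H460 over mdR-H460, 13.8% and 10.3% became 11.3% and 12.3% with TMM, and 11.1% and 12.5% with DESeq2 factors.

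Counts past the threshold that moved by over 1.5 times are as follows, and the cause was not tested except where fewer genes or cells or a stricter fold sets it. In mdR-H460 over H460, with TMM or DESeq2 factors 1 enzyme was higher, and 2 other genes were higher and 2 lower. With cells weighted equally 3 other genes were higher, with thinned cells 0 enzymes were lower, and in cells called G1 1 other gene was higher and 2 were lower. At a mean of 10 CPM 0 enzymes and 2 other genes were lower, and at 2-fold 0 enzymes and 1 other gene. In ldR-H460 over H460, with TMM or DESeq2 factors 2 enzymes were higher. With cells weighted equally 0 enzymes and 1 other gene were higher, and with thinned cells, or without cells of 4000 or more genes, 1 other gene. At a mean of 10 CPM 2 enzymes and 2 other genes were lower and 0 other genes higher, and at 2-fold 2 enzymes were lower, 0 enzymes higher and 1 other gene higher. In ldR-H460 over mdR-H460, with TMM or DESeq2 factors 1 other gene was higher. Without mitochondrial and ribosomal protein genes in the totals 1 enzyme was higher. With cells weighted equally 2 enzymes and 1 other gene were higher and 5 other genes lower, with thinned cells 1 and 5 other genes, without cells of 4000 or more genes 1 enzyme and 1 other gene higher and 5 lower, and in cells called G1 1 enzyme and 1 other gene higher and 6 lower. At a mean of 10 CPM 0 other genes were higher, and at 2-fold 1 enzyme was lower and 1 other gene higher. Of all genes in this pair, 16.9% were higher and 9.58% lower without mitochondrial and ribosomal protein genes in the totals. These shares were 16.1% and 13.1% with cells weighted equally, 14.9% and 11.9% with thinned cells and 17.3% and 16.1% in cells called G1. Without cells of 4000 or more genes they were 13.6% and 10.4%. At a mean of 10 CPM they were 7.26% and 9.88%, and at 2-fold 4.51% and 4.12%.

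Depth limits CA9 in ldR-H460, which rests on 13 UMIs, and PFKFB4, which has 45 to 69 UMIs a library.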
